A study of Mus musculus with 27 samples.

Results

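The replication-dependent histone genes encode the histone proteins that package newly copied DNA. They were taken as all rows of the gene table whose symbol begins with Hist1h, Hist2h, Hist3h or Hist4h, which gave 70 of 37310 genes. The table holds RNA-seq of mouse embryonic fibroblasts (MEFs), a mixed primary culture grown from embryos at E13.5, in 4 groups of 3 libraries: female wild-type (WT), female *Firre* knockout (KO), male WT and male *Firre* KO. The KO lines carry a loxP-mediated deletion of the X-linked locus of the long noncoding RNA *Firre*, and the MEFs came from individual embryos kept as separate stocks, so that sex and line cannot be told apart. Whether the 3 replicates of a group are separate embryos is not given in the sources used here, and p-values then measure only the spread between these libraries. The same series holds a Hi-C contact map of C2C12, a mouse myoblast line, which was read for the chromosomal neighbourhood of the histone genes.

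Histone genes of this class work as a family of near copies. They are transcribed as cells enter S phase, the period in which DNA is replicated, from clusters in which genes for the linker histone H1 and for the core histones H2A, H2B, H3 and H4 lie side by side. Their mRNAs carry no introns and, unlike nearly all other mRNAs, end in a short stem-loop in place of a poly(A) tail. The stem-loop is bound by SLBP, and the end is cut with the help of the U7 small nuclear ribonucleoprotein. Histone variants such as H3.3 (*H3f3a* and *H3f3b*) and H2A.Z (*H2afz*) are encoded elsewhere by genes with ordinary poly(A) tails and are made throughout the cell cycle. Some genes of the clusters also give a second, longer mRNA with a poly(A) tail.

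Library totals ran from 42987000 to 51481000 expected counts in the female lines and from 51522000 to 65455000 in the male lines. *Firre*, listed as *6720401G13Rik*, had 90 to 129 expected counts in the female WT libraries, 239 to 307 in the male WT libraries and 0 in each of the 6 KO libraries. The 10 fibroblast markers, among them collagens and vimentin, summed to between 16092 and 23570 CPM (the counts-per-million unit, on scaled library totals) in every library. The whole set of histone cluster genes summed to 139 CPM on average, less than *H3f3b* alone at 415 CPM.

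The 70 genes lie on 4 chromosomes of the mm9 build, in which all positions below are given. The Hist1 genes, 56 in all, are on chromosome 13: 24 lie in a run at chr13:21807632-22135545, 31 in a run at chr13:23622919-24026720, and *Hist1h2al* stands alone at chr13:51298057-51298434. The 10 Hist2 genes are at chr3:96023839-96082924, the 3 Hist3 genes at chr11:58762413-58770176 and *Hist4h4* at chr6:136752589-136752900. By histone type there are 6 genes for H1, 20 for H2A, 19 for H2B, 12 for H3 and 13 for H4. The annotation (GENCODE vM1) lists 3 of them, *Hist1h2aj*, *Hist2h3c2* and *Hist3h2bb-ps*, as pseudogenes.

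The stem-loop was searched on the gene strand as a stretch of 16 bases, in which GGCTCTTTT is followed by 1 base of any kind and then by AGAGCC, with at most 2 mismatches. It was present in 63 of the 70 genes, counting the 150 bases after an annotated stop codon and the window from 1000 bases before to 200 bases after the annotated gene end. After the stop codon alone it was found in 61 of the 67 members with a coding sequence, against 0.310% of all 21964 genes with one, and 49 of the 61 had no mismatch. In the window at the gene end it was found in 53 of 70 members against 0.338% of all genes. The sequences below are shown because they are the feature that the family shares and because their place in the annotated gene differs between the members with high and with low counts. Each is 30 bases of the gene strand, 5′ to 3′, with the 16 bases of the match in capitals.

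Hist1h1c, chr13:23831374-23831403, plus strand: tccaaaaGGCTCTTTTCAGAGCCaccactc
Hist1h2bc, chr13:23776509-23776538, plus strand: ttccaaaGGCTCTTTTCAGAGCCacccact
Hist3h2a, chr11:58768667-58768696, plus strand: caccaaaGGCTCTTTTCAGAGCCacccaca
Hist2h3c1, chr3:96051243-96051272, plus strand: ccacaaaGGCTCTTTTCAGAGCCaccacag
Hist1h3b, chr13:23844682-23844711, plus strand: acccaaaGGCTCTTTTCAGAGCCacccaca
Hist1h4i, chr13:22132828-22132857, minus strand: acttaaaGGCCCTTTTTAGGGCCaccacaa
Hist4h4, chr6:136752512-136752541, minus strand: ccacaaaGGCCCTTTTCAGGGCCcacaaag
Hist1h2ba, chr13:24025592-24025621, minus strand: acccaaaGGCTCTTTTAAGAGCCacccacc

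The form GGCTCTTTTCAGAGCC was carried by 41 members of the types H1, H2A, H2B and H3. A second form, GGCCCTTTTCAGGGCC, was carried by 8 members, all for H4, and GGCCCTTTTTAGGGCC by 2 more, *Hist1h4i* and *Hist2h4*. The form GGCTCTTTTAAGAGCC was carried by 9 members, including the testis genes *Hist1h1t* and *Hist1h2ba*. No match was found for *Hist1h2al*, *Hist1h2aj*, *Hist1h4a*, *Hist1h4b*, *Hist1h4j*, *Hist2h2be* and *Hist2h2bb*. Beyond the family, 7 genes had a match after a stop codon, 1 of them *H2afx*, the gene of the DNA damage-responsive variant H2A.X. AATAAA, the signal that precedes a poly(A) tail, stood on the gene strand in the last 40 bases of an annotated transcript of 11 of 70 members against 41.0% of all genes.

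Counts were concentrated in a few members. *Hist1h1c*, which encodes the linker histone H1.2, averaged 46.1 CPM, *Hist1h2bc*, for an H2B, 42.6 CPM and *Hist3h2a*, for an H2A, 14.6 CPM. These 3 genes held 74.3% of the summed level, and between 73.0% and 75.6% in each library. A further 11 members lay between 1 and 10 CPM, 28 between 0.1 and 1 CPM, and 28 below 0.1 CPM, 3 of which were at 0 in all 12 libraries.

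In the female WT libraries *Hist1h1c* was at 49.8, 45.4 and 50.4 CPM, in the female KO libraries at 51.6, 43.9 and 46.8 CPM, in the male WT libraries at 43.5, 54.3 and 35.8 CPM, and in the male KO libraries at 53.5, 50.4 and 27.6 CPM. All 4 groups overlapped, and the lowest value was that of male KO replicate 3. *Hist1h2bc* was at 41.0, 42.9 and 45.5 CPM in female WT, at 46.5, 37.2 and 46.0 CPM in female KO, at 41.8, 47.5 and 40.5 CPM in male WT, and at 49.0, 45.7 and 28.1 CPM in male KO. *Hist3h2a* was at 14.8, 14.3 and 15.7 CPM in female WT, at 14.5, 12.7 and 15.8 CPM in female KO, at 14.8, 15.8 and 14.9 CPM in male WT, and at 16.02, 14.4 and 11.1 CPM in male KO. The groups again overlapped for both genes, with male KO replicate 3 the lowest of the 12 libraries.

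**Figure D1:**
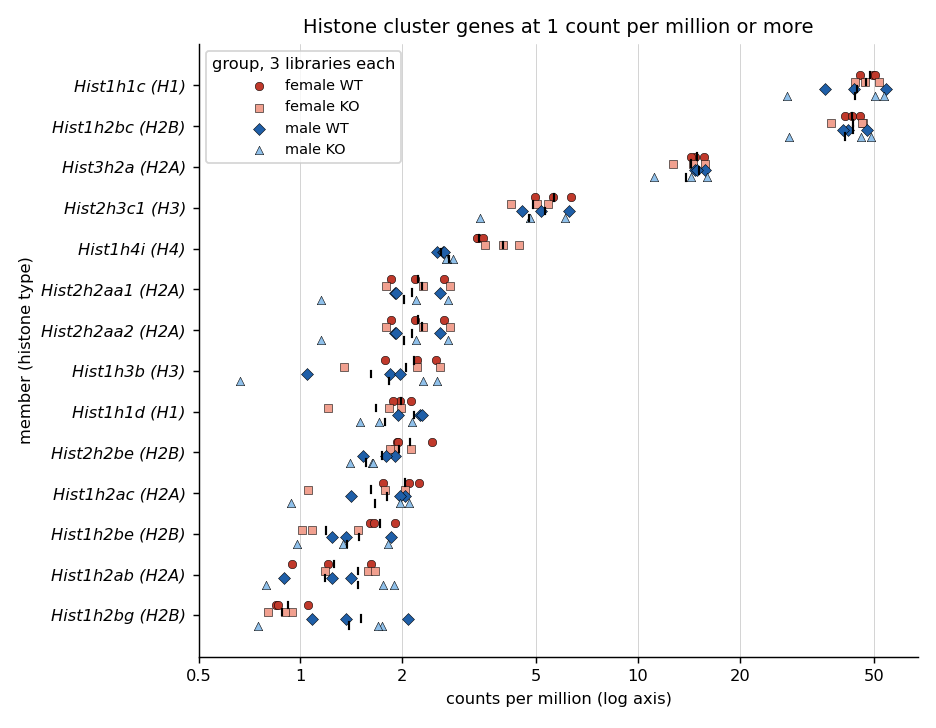
CPM on a log axis for the 14 members at 1 CPM or more, with 1 point per library, colour and shape by group, and a tick at each group mean. *Hist1h1c* and *Hist1h2bc* lie near 40 to 50 CPM in most libraries, most other members lie between 1 and 5 CPM, and for most genes the leftmost point is a male KO library, replicate 3.

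By histone type, H2B genes held 36.3% of the summed level, H1 genes 35.0%, H2A genes 17.02%, H3 genes 7.63% and H4 genes 4.04%. A single gene led each type: *Hist1h1c* held 46.1 of the 48.6 CPM of the H1 genes, *Hist1h2bc* 42.6 of the 50.5 CPM of the H2B genes, and *Hist3h2a* 14.6 of the 23.7 CPM of the H2A genes. *Hist2h3c1* held 5.14 of the 10.6 CPM of the H3 genes, and *Hist1h4i* 3.18 of the 5.62 CPM of the H4 genes. The 4 core histones are used in equal numbers in a nucleosome, whereas the summed H2B counts here were above those of H3 and H4 in each of the 12 libraries. Among the other members at 1 CPM or more, *Hist1h3b*, for an H3, averaged 1.92 CPM, *Hist1h1d*, for the linker histone H1.3, 1.91 CPM and *Hist1h2be*, for an H2B, 1.45 CPM. The annotated span of *Hist1h2be* overlaps that of a noncoding gene on the same strand. By cluster, Hist1 held 80.6% of the summed level, Hist3 10.7%, Hist2 8.72% and *Hist4h4* 0.0142%.

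Within the Hist2 cluster the leading genes were *Hist2h3c1* for H3, *Hist2h2aa1* and *Hist2h2aa2* for H2A at 2.18 CPM each, *Hist2h2be* for H2B at 1.84 CPM, and *Hist2h4* for H4 at 0.0993 CPM. *Hist2h3c1* and *Hist2h2aa1* share 562 bases on the same strand in this annotation, so reads from that stretch cannot be assigned to 1 of them. In the Hist3 cluster, *Hist3h2ba*, for an H2B, stood at 0.218 CPM beside *Hist3h2a*, whose whole span also lies within that of *Trim17* on the same strand. *Trim17* itself was at 0.211 CPM. *Hist4h4* had 1 count in 10 libraries, 2 counts in female KO replicate 3 and none in male KO replicate 3.

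Per kilobase of merged exons, the order of the leading members changed. *Hist1h2bc*, with 736 bases of annotated exon, came first at 57.9 CPM per kb, followed by *Hist1h1c* at 29.5, *Hist3h2a* at 7.32 and *Hist1h4i* at 5.93 CPM per kb. *Hist2h3c1*, with 2955 bases, moved from the fourth place by CPM to the tenth by CPM per kb, at 1.74. For comparison, the variant genes *H2afz* and *H3f3b* stood at 141 and 139 CPM per kb. The same 12 members came first when the longest transcript was used in place of merged exons.

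Levels were higher among the members whose annotation runs far past the stem-loop. In 13 members the annotated gene end lay more than 500 bases beyond the stem-loop, and these held 83.8% of the summed level with a median of 1.45 CPM. The distance was 839 bases for *Hist1h1c*, 1487 for *Hist3h2a*, 1166 for *Hist2h3c1* and, across an intron, 7826 for *Hist1h2bc*. In the 42 members whose annotation ended less than 100 bases after the stem-loop or before it, the median was 0.0989 CPM and the highest value was 2.18 CPM, and these held 10.0% of the summed level. Per kilobase the medians were 0.593 and 0.197 CPM per kb, and the ranges overlapped, from 0.0617 to 57.9 in the first set and from 0 to 3.76 in the second. Of the 11 members with AATAAA near an annotated transcript end, *Hist1h1c*, *Hist1h2bc*, *Hist2h3c1* and *Hist2h2be* were above 1 CPM, and the set held 70.0% of the summed level. How RNA was selected for these libraries is not given beyond the name of the kit, and its part in these levels was not tested.

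**Figure D2:**
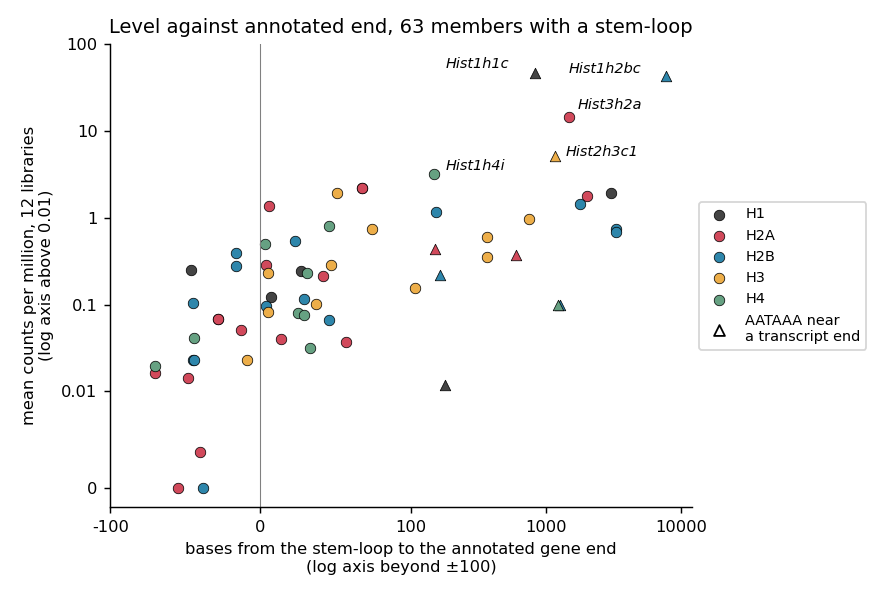
Mean CPM over 12 libraries (log axis above 0.01) against the number of bases from the stem-loop to the annotated gene end (log axis beyond 100 bases either way) for the 63 members with a match, coloured by histone type, with triangles for AATAAA near an annotated transcript end. The 4 members above 5 CPM all lie more than 500 bases beyond the stem-loop, and most of the 42 members under 100 bases lie below 1 CPM.

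Many H2A and H2B genes lie head to head, with starts that face away from each other across a short stretch of DNA. Among the annotated members 14 neighbouring pairs had starts less than 1000 bases apart, 13 of them of an H2A and an H2B gene, with 167 to 305 bases between those 13. The levels of the partners differed by ratios between 1.64 and 630 in the 13 pairs with counts, with 5 of these pairs under 3, and both *Hist1h2ba* and *Hist1h2aa* were at 0. *Hist1h2bc* stood at 42.6 CPM and its partner *Hist1h2ac* at 1.78 CPM, a ratio of 23.9. In 3 of the pairs both genes had counts high enough to be tested, and the deviations of the partners from their group means correlated at r = 0.904 for *Hist1h2ac* and *Hist1h2bc*, at 0.345 for *Hist1h2ae* and *Hist1h2bg* and at 0.076 for *Hist1h2ag* and *Hist1h2bj*, over the 12 libraries, which share depth and library between the genes. The 250 bases between *Hist1h2ac* and *Hist1h2bc* are given because they serve as the upstream region of both genes, read on the strand of *Hist1h2bc*, with matches to CCAAT and to the TATA box motif TATAAA, or to the reverse complement of either, in capitals.

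Hist1h2ac to Hist1h2bc, chr13:23775818-23776067, plus strand: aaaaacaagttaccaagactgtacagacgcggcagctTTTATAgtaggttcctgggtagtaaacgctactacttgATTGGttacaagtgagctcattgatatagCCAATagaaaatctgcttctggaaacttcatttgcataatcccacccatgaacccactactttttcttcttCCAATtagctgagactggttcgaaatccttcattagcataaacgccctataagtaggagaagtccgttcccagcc

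It holds 3 matches to CCAAT and 1 to TATAAA on either strand. CCAAT was found on either strand in the 250 bases before the start of 58 of 70 members against 33.7% of all genes, and TATAAA in 33 of 70 members against 15.01% of all genes. Both motifs are short, and a match in this window is a description of the sequence only.

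Because the members are near copies, many reads match several of them, and RSEM divides such reads in fractions. In each library between 82.1% and 91.5% of the members above 0 had an expected count that differed from a whole number by more than 0.001, against 28.4% to 31.9% of all genes above 0. Of the 70 members 60 had a fractional count in at least 1 library, 35 in all 12, and 7 were whole wherever they had a count. Fractions were least common in the H1 genes, with 54.7% of their values above 0, whose nearest member by exon sequence was 77.7% identical in the median. They were most common in the H2A genes, at 99.4%, with a median identity of 98.2%. The types in between did not follow the order of identity, with 98.5% of values for H3 at a median identity of 92.4%, 84.4% for H2B at 97.9% and 83.9% for H4 at 94.6%.

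Some members could not be told apart at all. *Hist2h2aa1* and *Hist2h2aa2* have identical annotated exons and the same count in each of the 12 libraries, so that each of their values is an even division of shared reads, and the same holds for *Hist1h2ao* and *Hist1h2ap* at 0.0691 CPM. *Hist1h2bq* and *Hist1h2br* also have identical exons, but their counts were equal in only 6 of 12 libraries. Values of single low members of H2A, H2B, H3 and H4 are uncertain for this reason. *Hist2h2be* is the exception among the leading genes, with a whole count in all 12 libraries.

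The testis genes were at or near 0. *Hist1h2ba* and *Hist1h2aa*, which encode the testis H2B and H2A variants, had no count in any library, which allows at most 0.0463 to 0.0701 CPM per library (3 counts of the scaled total, counting error only). *Hist1h1t*, for the testis linker histone, had 8 counts in all, in 4 male libraries and in none of the female libraries. *Hist1h2al* was also at 0 throughout.

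To ask whether loss of *Firre* changed the histone genes, KO and WT were compared within each sex. No member passed the test in either line. Of the 70 members 37 had counts high enough to be tested, and 0 passed the thresholds (a change of over 1 on the log2 scale either way and an edgeR quasi-likelihood p that stayed under 0.01 after adjustment over 15387 genes by the Benjamini-Hochberg method) in the female lines, where 0.0065% of all genes did. In the male lines 0 of 37 passed, again against 0.0065% of all genes, the single gene in both cases being *Firre*. DESeq2 also called 0 members in both lines, although it gave an adjusted p to only 2 members in the female lines, and its unadjusted p was under 0.05 for 3 and 4 members. At an unadjusted p under 0.05 there were 3 members in the female lines, or 8.11%, against 7.55% of all genes, and 2 in the male lines, or 5.41%, against 2.06% of all genes. For the difference between the sexes in the KO effect 0 of 37 passed the thresholds, by edgeR and by DESeq2, as did 0% of all genes, and 1 member, *Hist1h4a*, had an unadjusted p under 0.05 by edgeR, against 3.19% of all genes. By DESeq2 no member did.

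The leading genes differed little between KO and WT. In the female lines the log2 fold change of *Hist1h1c* was -0.034 ± 0.21 (SE), that of *Hist1h2bc* 0.0031 ± 0.17 and that of *Hist3h2a* -0.061 ± 0.12. In the male lines the same genes were at -0.022 ± 0.21, -0.079 ± 0.17 and -0.13 ± 0.12, and without male KO replicate 3 at 0.22, 0.13 and 0.00099. *Hist2h3c1* was at -0.21 ± 0.20 in the female and -0.16 ± 0.20 in the male lines, and *Hist1h4i* at 0.23 ± 0.10 and 0.070 ± 0.10. None passed the adjusted threshold, with an adjusted p by edgeR of 0.653 for *Hist1h4i* in the female lines and larger values for the other 4.

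**Figure D3:**
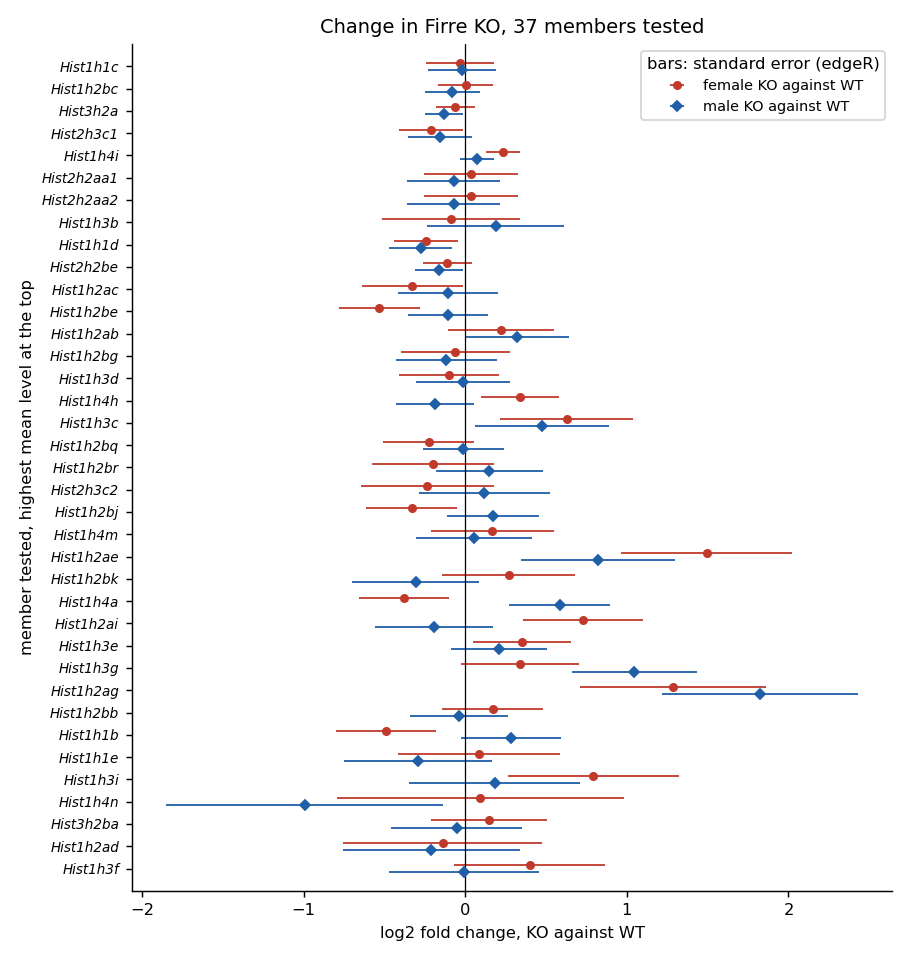
log2 fold change of KO against WT with its standard error from edgeR for the 37 members tested, female lines in red circles and male lines in blue diamonds, ordered by mean level. The high members at the top have short bars and lie near 0, and the widest departures, such as *Hist1h2ae* and *Hist1h2ag*, are at low levels with long bars.

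The members with the 3 highest and the 3 lowest log2 fold changes mostly had few counts, the exception being *Hist1h2be* with 47.2 to 110 per library. In the female lines they were 1.49 ± 0.53 for *Hist1h2ae*, 1.29 ± 0.57 for *Hist1h2ag* and 0.79 ± 0.53 for *Hist1h3i*, and at the other end -0.53 ± 0.25 for *Hist1h2be*, -0.49 ± 0.31 for *Hist1h1b* and -0.38 ± 0.28 for *Hist1h4a*. The first 2 encode copies of H2A, *Hist1h3i* an H3, *Hist1h2be* an H2B and *Hist1h1b* a linker histone. In the male lines they were 1.82 ± 0.60 for *Hist1h2ag*, 1.05 ± 0.39 for *Hist1h3g* and 0.82 ± 0.48 for *Hist1h2ae*, and -0.99 ± 0.86 for *Hist1h4n*, -0.31 ± 0.39 for *Hist1h2bk* and -0.29 ± 0.46 for *Hist1h1e*. Most of these values moved by over 1.5 times when single libraries were left out, while *Hist1h2ag* (1.58 to 2.09) and *Hist1h2ae* (0.68 to 1.02) in the male lines and *Hist1h2be* (-0.72 to -0.42) in the female lines did not. With 1 library left out at a time, *Hist1h2ae* ranged from 1.01 (without female WT replicate 1) to 2.45 (without female WT replicate 3) in the female lines, *Hist1h2ag* from 0.85 (without female WT replicate 1) to 2.04 (without female WT replicate 2) and *Hist1h3i* from 0.36 (without female KO replicate 1) to 1.15 (without female KO replicate 2). At the other end *Hist1h4a* ranged from -0.52 (without female KO replicate 3) to -0.17 (without female KO replicate 2) and *Hist1h1b* from -0.68 (without female KO replicate 2) to -0.32 (without female WT replicate 1). In the male lines *Hist1h3g* ranged from 0.60 (without male KO replicate 2) to 1.46 (without male WT replicate 2), *Hist1h4n* from -1.82 (without male KO replicate 1) to -0.69 (without male WT replicate 1) and *Hist1h1e* from -0.52 (without male KO replicate 2) to -0.099 (without male WT replicate 1), and *Hist1h2bk* changed sign. The smallest adjusted p by edgeR over the members was 0.573 in the female lines and 1.0 in the male lines.

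*Hist1h2ag* was among the 3 highest log2 fold changes in both lines. In CPM it was at 0.0435, 0.361 and 0.177 in female WT and at 0.231, 0.550 and 0.610 in female KO, where the groups overlapped. In male WT it was at 0.0619, 0.132 and 0.116 and in male KO at 0.215, 0.403 and 0.495, where they did not. Its expected counts, between 1.86 and 27.6 per library, were fractional in all 12 libraries, and its nearest member was 98.98% identical. *Hist1h2ae* was at 0.0320, 0.169 and 0.372 CPM in female WT and at 0.445, 0.612 and 0.625 CPM in female KO, which did not overlap. In male WT it was at 0.337, 0.409 and 0.333 CPM and in male KO at 0.711, 0.758 and 0.434 CPM, which did not overlap either. Its expected counts, between 1.37 and 49.2 per library, were also fractional in all 12 libraries, and its nearest member was 98.2% identical. Both genes were named for their log2 fold changes in these same libraries. How many of all genes separate in this way was not counted. The unadjusted p of *Hist1h2ae* by edgeR was 0.0167 in the female and 0.113 in the male lines, with adjusted p of 0.573 and 1.0. That of *Hist1h2ag* was 0.0463 and 0.0115, with adjusted p of 0.653 and 1.0. By the same test 7.55% of all genes in the female and 2.06% in the male lines had an unadjusted p under 0.05.

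Over the 37 members the median log2 fold change was 0.037 in the female lines, with 20 above 0 and 17 below, against a median of -0.00032 over all genes tested. In the male lines it was -0.022, with 15 above 0 and 22 below, against -0.0041 over all genes. Leaving out 1 library at a time moved these medians between -0.068 and 0.17 in the female lines and between -0.17 and 0.17 in the male lines, so that the sign of neither held. The median absolute log2 fold change was 0.23 and 0.16, against 0.083 and 0.057 over all genes tested. Members were not compared with genes of similar counts, and the part of low counts in this difference was not tested.

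The summed level did not separate the groups. It was 140.8, 136.6 and 152.9 CPM in female WT, 151.7, 126.6 and 147.8 CPM in female KO, 135.6, 155.6 and 121.6 CPM in male WT, and 159.6, 147.9 and 91.4 CPM in male KO. The means were 143 ± 8.49 (SD, n = 3), 142 ± 13.5, 138 ± 17.1 and 133 ± 36.5 CPM, and the ranges of the 4 groups overlapped. Without male KO replicate 3 the male KO mean was 153.8 CPM over the remaining 2 libraries.

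Male KO replicate 3 stood apart. It was the lowest of the 12 libraries for 9 of the 12 members with the highest level. Both counts include *Hist2h2aa1* and its duplicate *Hist2h2aa2*, whose values are equal in all libraries. The level in male KO replicate 3 relative to the mean of the other male KO libraries was 0.531 for *Hist1h1c*, 0.593 for *Hist1h2bc*, 0.732 for *Hist3h2a* and 0.274 for *Hist1h3b*, which encodes an H3. *Hist1h4i*, at 0.971, and *Hist2h2be*, at 1.08, were close to the other libraries. In the same library the 20 genes of an S phase list (replication licensing and DNA synthesis genes such as *Pcna*, *Mcm2* to *Mcm7* and *Rrm2*) summed to 1971 CPM, against 1563 and 1617 CPM in the other male KO libraries. The proliferation genes *Mki67* and *Top2a* stood there at 465 and 440 CPM, the highest of the 12 libraries. Male WT replicate 3 had the lowest summed histone level of its group, at 121.6 CPM, and the highest S phase sum, at 1694 CPM. *Mki67* and *Top2a* stood in that library at 370 and 348 CPM, also the highest of the group. Whether same-numbered male libraries were prepared together is not given in the sources used here.

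Across libraries the levels of the histone members were positively correlated with each other and negatively with those of the S phase genes. The deviations of log2 CPM from the group means were correlated between 36 members (the 37 tested, with *Hist2h2aa2* left out as a duplicate of *Hist2h2aa1*), and the median Pearson r over their 630 pairs was 0.313, against -0.001 over all pairs of genes tested. For the 13 of these members at 1 CPM or more it was 0.681, and for the 23 below 1 CPM 0.261. Between the members and the 20 S phase genes the median r was -0.518 over all 36 members, -0.761 over the 13 and -0.386 over the 23, while the S phase genes among themselves had a median r of 0.849. No median of all genes against the S phase genes was computed. Between the 13 members and 11 histone variant genes the median r was -0.047. These are descriptions over 12 libraries with 4 group means removed, in which all genes share the library, its depth and its scaling, and pairs are not independent.

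The negative correlation was not shared by all members. Against the S phase genes the median r was -0.906 for *Hist1h2ac*, -0.895 for *Hist3h2a*, -0.888 for *Hist1h2bc*, -0.876 for *Hist2h3c1* and -0.856 for *Hist1h1c*, but 0.250 for *Hist1h4i* and 0.035 for *Hist2h2be*. Without male KO replicate 3 *Hist1h4i* was at 0.590 and *Hist2h2be* at -0.173. The others also moved, to -0.825 for *Hist1h2ac*, -0.770 for *Hist3h2a*, -0.744 for *Hist1h2bc*, -0.761 for *Hist2h3c1* and -0.635 for *Hist1h1c*. *Hist1h3b* went from -0.755 to -0.391 and *Hist1h2ab*, for an H2A, from -0.578 to -0.050. In female KO replicate 2, which had the highest S phase sum at 2082 CPM, all 20 S phase genes lay above their group mean and 11 of the 13 members below it. Without male KO replicate 3 the median r was 0.218 over the 36 members, 0.38 over the 13 at 1 CPM or more, -0.372 between the 36 members and the S phase genes and -0.558 between the 13 and the S phase genes, with 0.731 among the S phase genes. Whether the share of cells in S phase differed between libraries was not measured, and its part in these values was not tested.

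**Figure D4:**
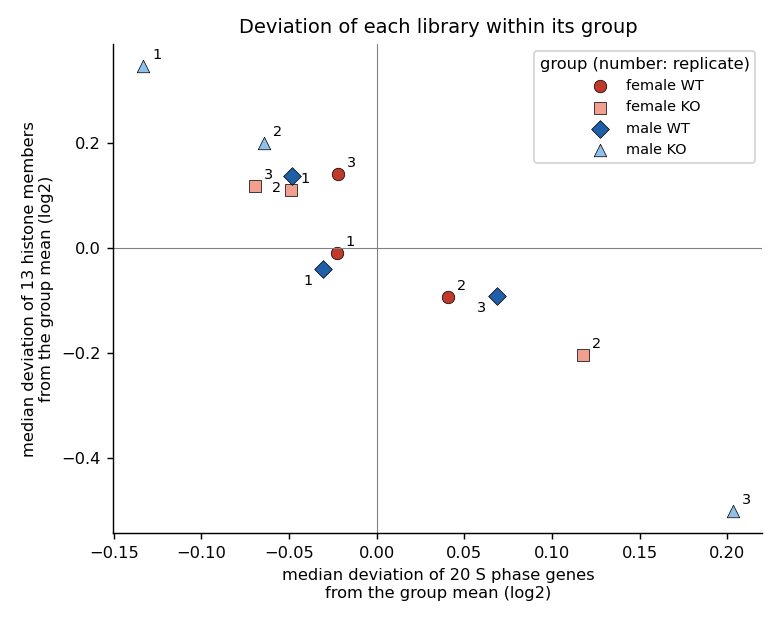
Each point is 1 library, with the median deviation from its group mean (log2) of 20 S phase genes on the x axis and of the 13 members at 1 CPM or more on the y axis, coloured by group and numbered by replicate. In male KO replicate 3 and female KO replicate 2 the S phase genes lie farthest above the group mean and the histone members farthest below it, and in female WT replicate 1 and male WT replicate 1 both medians lie slightly below it.

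Genes that act on histone mRNAs and proteins were read beside the members. *Slbp*, whose protein binds the stem-loop, stood at 54.9 CPM with log2 fold changes of 0.0087 in the female and 0.067 in the male lines. *Npat*, which activates histone transcription, stood at 50.3 CPM with -0.071 and 0.095, and *Casp8ap2*, a component of the histone locus body, at 40.7 CPM with -0.080 and 0.062. *Lsm10* and *Lsm11*, the specific proteins of the U7 particle, were at 9.43 and 19.1 CPM, and *Zfp473*, which also takes part in end formation, at 0.708 CPM. Of the 28 genes of the processing list, all tested, 0 passed the thresholds in either line by edgeR, with 2 and 1 at an unadjusted p under 0.05, against 7.55% and 2.06% of all genes. *Snrpf*, for a core protein of spliceosomal and U7 particles, was among them in both lines, at 0.35 ± 0.070 in the female and 0.31 ± 0.070 in the male lines with adjusted p of 0.423 and 1.0 by edgeR, and its count was fractional in all 12 libraries. The list's median log2 fold change was 0.046 in the female and 0.028 in the male lines.

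Of the variant genes none passed the thresholds either, while more of them than of all genes had an unadjusted p under 0.05. *H2afz* was at 251 CPM, *H3f3a* at 267 CPM, *H3f3b* at 415 CPM, *H2afx* at 36.8 CPM and *H1f0*, a linker histone of resting cells, at 16.4 CPM. Their log2 fold changes in the female lines were 0.14, 0.0077, -0.044, 0.41 and 0.15, and in the male lines 0.075, -0.022, -0.0050, 0.26 and 0.065. Of the 11 genes of the variant list 0 passed the thresholds in either line, with 5 (*H2afx*, *H2afz*, *H2afj*, *H1fx* and *Cenpa*) and 2 (*H2afx* and *Cenpa*) at an unadjusted p under 0.05 by edgeR, against 7.55% and 2.06% of all genes. The highest was *H1fx* at 0.48 ± 0.15 in the female lines, with an adjusted p of 0.542 by edgeR, and the list's median was 0.15 and 0.11. The 13 histone chaperone genes had 0 calls in either line, with 1 and 0 at an unadjusted p under 0.05 by edgeR, against the same 7.55% and 2.06%, and medians of 0.064 and 0.052. The S phase list had 0 calls, with 2 and 1 at an unadjusted p under 0.05 by edgeR against those shares, and medians of 0.099 and 0.11. All 20 S phase genes had a log2 fold change above 0 in both lines, from 0.032 to 0.21 in the female and from 0.068 to 0.26 in the male lines, but the groups overlapped and 1 KO library per line was far above the rest. The summed S phase level was 1778, 1882 and 1787 CPM in female WT and 1854, 2082 and 1828 CPM in female KO, and it was 1521, 1516 and 1694 CPM in male WT and 1563, 1617 and 1971 CPM in male KO, whose mean was 1717 CPM with and 1590.1 CPM without replicate 3.

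The female and male WT lines were compared to set the size of the KO effects beside that of a difference between lines, and the comparison shares its WT libraries with those above. *Hist1h4a*, for an H4, was higher in the female line, and it was the 1 member of 37 past the thresholds, against 4.54% of all genes. It was at 0.576, 0.524 and 0.692 CPM in female WT and at 0.201, 0.180 and 0.167 CPM in male WT, with no overlap. The log2 fold change was 1.71 ± 0.30 with an adjusted p of 0.0013 by edgeR. In the KO libraries it was at 0.524, 0.325 and 0.546 CPM in the female and at 0.359, 0.274 and 0.193 CPM in the male line, which overlapped. It is a gene with a fractional count in every library, between 8.91 and 36.7, and a filter that asked for 10 counts in every library removed it, leaving 0 members past the thresholds.

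At an adjusted p under 0.05 with no limit on the fold, 3 members were higher in the female line, against 18.9% of all genes, and 1 was lower, against 19.8% of all genes. At an unadjusted p under 0.05 there were 9 of 37 members, or 24.3%, against 47.8% of all genes. *Hist1h4i*, the leading H4 gene, was at 3.36, 3.35 and 3.47 CPM in female WT and at 2.54, 2.65 and 2.66 CPM in male WT, a log2 fold change of 0.37 ± 0.10 with an adjusted p of 0.017 by edgeR. All 6 female libraries, from 3.35 to 4.44 CPM, were above all 6 male libraries, from 2.54 to 2.83 CPM. *Hist1h3g*, for an H3, was higher in female WT with a log2 fold change of 1.13 ± 0.39 and an adjusted p of 0.042 by edgeR, at 0.333, 0.333 and 0.288 CPM against 0.120, 0.208 and 0.0861 CPM. Its KO libraries overlapped between the sexes, from 0.322 to 0.438 CPM in the female and from 0.209 to 0.447 CPM in the male line.

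*Hist1h2bq*, for an H2B, was lower in female WT, at 0.557, 0.461 and 0.599 CPM against 1.14, 1.03 and 0.768 CPM in male WT. The log2 fold change was -0.85 ± 0.27 with an adjusted p of 0.026 by edgeR, and all 6 female libraries lay below all 6 male libraries. Its twin *Hist1h2br*, with identical exons, was at -0.93 ± 0.35 with an adjusted p of 0.058 by edgeR. The libraries of *Hist1h2br* overlapped, from 0.282 to 0.560 CPM in the female and from 0.461 to 1.14 CPM in the male lines. Without male WT replicate 3 *Hist1h2br* was at -1.23 with an adjusted p of 0.0092 by edgeR and passed the thresholds beside *Hist1h4a*. When both genotypes were used for the comparison of the sexes, a choice made after the data were seen, *Hist1h4a*, *Hist1h2br* and *Hist3h2ba* passed, and *Hist3h2ba* was higher in the female lines by 1.08 ± 0.27 on the log2 scale. Its 6 female libraries, from 0.204 to 0.442 CPM, lay above its 6 male libraries, from 0.0771 to 0.181 CPM. How many of all genes separate the sexes in this way, as this gene, *Hist1h4i* and *Hist1h2bq* did, was not counted. The median over the 37 members between the WT lines was 0.066, against -0.0052 over all genes.

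**Figure D5:**
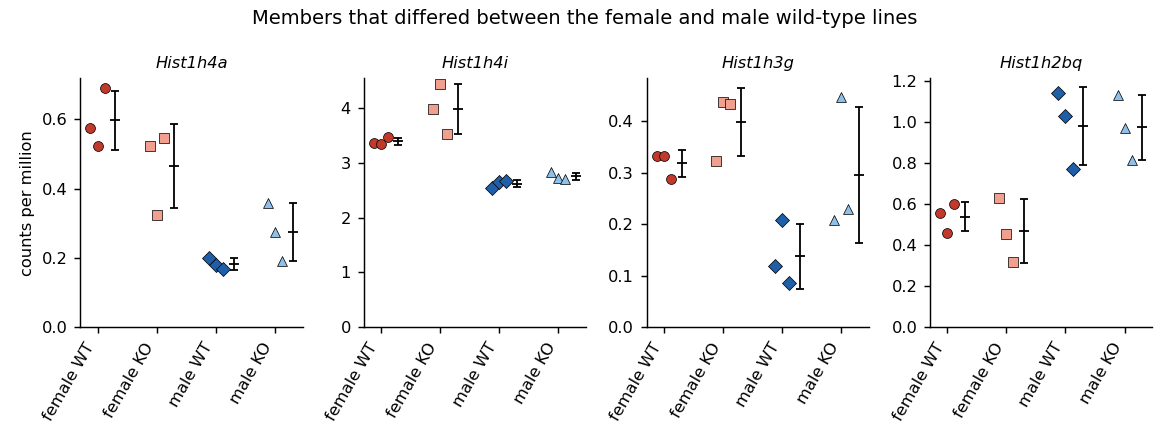
CPM of the 4 members with an adjusted p under 0.05 between the female and male WT lines, with 1 point per library in all 4 groups and the mean with its SD beside the points. *Hist1h4i* and *Hist1h2bq* separate the 6 female from the 6 male libraries, while the KO points of *Hist1h4a* and *Hist1h3g* overlap between the sexes. *Hist1h2br*, whose exons are identical to those of *Hist1h2bq*, is not drawn, and its libraries overlap between the sexes.

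Other genes also differed between these lines, and their part in the values of the histone members was not tested. In bulk RNA fewer cells of a type and less RNA per cell cannot be told apart. All 6 macrophage markers (*Lyz2*, *Ptprc*, *Cd68*, *Csf1r*, *Emr1* and *C1qa*) passed the thresholds with higher values in female WT, where they summed to between 41.4 and 73.6 CPM against 7.62 to 11.7 CPM in male WT. Of the epithelial markers 3 of 4 (*Cdh1*, *Krt18* and *Krt5*) passed, with sums of 16.9 to 37.9 CPM against 4.16 to 8.83 CPM. *Myog* of the 5 skeletal muscle markers and *Lum* of the 10 fibroblast markers passed as well, both higher in female WT, and 0 of the 4 endothelial markers did. At an adjusted p under 0.05 by edgeR with no limit on the fold, 3 of the 4 endothelial markers were higher in female WT, and of the 10 fibroblast markers 1 (*Lum*) was higher and 2 were lower, with a list median of -0.33 on the log2 scale. Of the muscle markers 3 of 5 were higher in female WT at an adjusted p under 0.05 by edgeR, while their sum, most of it *Acta1*, was 68.1 to 112 CPM against 92.4 to 113.5 CPM. The fibroblast markers summed to 16092 to 19766 CPM against 18850 to 23570 CPM, and the endothelial markers to 21.7 to 33.3 CPM against 13.9 to 20.5 CPM. No marker of these lists was at 0 in all libraries of a group. At an adjusted p under 0.05 by edgeR, 6 of 20 S phase genes, 5 of 28 processing genes and 3 of 13 chaperone genes were higher in female WT, against 18.9% of all genes, and *H1f0* was the 1 of 11 variant genes that was lower, by 0.49 on the log2 scale with an adjusted p of 0.00099, against 19.8% of all genes.

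In the Hi-C map of C2C12 cells the 2 runs of Hist1 genes on chromosome 13 showed contact signal across the 1487 kb between them. The runs cover 9 and 11 bins of 40 kb, and the mean corrected signal over the 99 bin pairs was 1.76, with signal above 0 in 52 of them. Placed at each of 2804 positions along chromosome 13 with the same size and spacing, such blocks had a median of 0.487, and the middle 90% of them lay between 0.205 and 1.25. The signal between the histone runs was 3.62 times that median. With absent bin pairs left out the values were 3.36 and 1.31, a ratio of 2.57. With the median over bin pairs in place of the mean, the value of 0.648 lay inside the range of the middle 90% of positions, from 0 to 0.946. Positions along the chromosome overlap each other, and the 2 Hi-C replicates were pooled by the authors, so that no error can be given.

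Between chromosomes the map was too sparse to compare. Of the 33 bin pairs between the longer Hist1 run and the Hist2 cluster 1 had signal above 0, and *Hist1h2al* and the Hist2 cluster shared 1 of 3. The other 10 combinations of runs on different chromosomes had none. No KO counterpart of this map was analysed here.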

How the data were processed

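The RNA-seq table holds expected counts per gene, which the authors made with Bowtie 2 and RSEM 1.2.29. The Hi-C table holds a corrected contact signal in 40 kb bins of mm9, which the authors made with HiC-Pro 2.7.8 after pooling 2 replicates. Libraries were made with an Illumina TruSeq kit; whether poly(A) RNA was selected and whether strand was kept are not given in the sources used here, so overlapping and antisense genes cannot be told apart. Groups came from the labels, with 3 libraries each. Expected counts were rounded, scaled by TMM, filtered with filterByExpr and fitted over all 12 libraries with edgeR 4.0.16 (R 4.3.3), with group means and Benjamini-Hochberg adjustment over 15387 genes. DESeq2 1.42.0, other scalings and filters, a replicate block and leaving out libraries were alternatives. CPM values use TMM-scaled totals, and floors of 3 counts cover counting error only. Log values for correlations carried a prior count of 2. Sequences came from the GENCODE vM1 annotation and genome, whose chromosome ends equalled those of the Hi-C bins for 22 of 22 chromosomes, and all 70 members matched by gene ID. The fit was tested on simulated data.

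The members and lists were chosen with earlier results of these data known. Named genes were the members past the thresholds in any comparison, the 12 with the highest mean CPM, the highest of each histone type in each cluster, the 3 highest and 3 lowest log2 fold changes in each KO comparison, the 2 highest and 2 lowest between the WT lines, 3 testis genes, the processing and variant genes given in the text, and any list gene past the thresholds, except that 1 marker list is not reported here. *Hist3h2ba*, *Hist1h2ab*, the partners in head-to-head pairs, *Mki67*, *Top2a*, *Trim17*, *Snrpf*, *H2afj*, *H1fx*, *Cenpa* and members named for a shared sequence were added after their values were seen. Same-numbered libraries were not treated as pairs. The r of their deviations ran from -0.164 to -0.118 in the female KO and from -0.110 to 0.027 in the WT comparison. In the male KO comparison it ran from 0.097 to 0.333, and 5 of 6 libraries there correlated best with their own number. Replicates of a group differed beyond sampling noise.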

Additional observations from a re-analysis of the deposited data

How the results depend on the processing

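The count of members past the thresholds between KO and WT was 0 in both lines, as was that for the difference between the sexes, under each alternative run; these tested 25 to 67 members, and DESeq2 gave an adjusted p to only 2 of them in the female lines. Between the WT lines the count of members past the thresholds was 1, and it was 0 with at least 10 counts in every library, 3 with both genotypes (chosen after seeing the data), 4 at an adjusted p under 0.05 with no fold limit, and 1 to 2 with single libraries left out. With members of whole counts alone, of which only 2 were tested, the median log2 fold changes were -0.30 (female KO), -0.36 (difference between the sexes) and 0.54 (between WT lines), and the median summed level of all 7 such members was 2.31 CPM in place of 144 for the 70. In the male KO comparison these 2 went opposite ways, with -0.16 for *Hist2h2be* and 0.28 for *Hist1h1b*. The replicate block left the counts at 0, 0, 0 and 1 and gave medians of 0.0013 and -0.031 in the female and male KO comparisons; the numbers do not pair these libraries by the rule used, and 0, 5 and 1 of 6 libraries correlated best with their own number in the female KO, male KO and WT comparisons. The median correlation of members was 0.425 with at least 10 counts in every library, and the Hi-C signal was 3.36 without absent bin pairs and 0.648 as a median.

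Of 486 values of single genes under alternatives 469 kept their direction and side of the threshold, 2 passed it and 15 turned in direction. *Hist1h2bc* in the female lines turned to -0.014 with library totals alone, -0.0031 with at least 10 counts and -0.0024 with only the libraries compared. With single libraries left out, log2 fold changes in the female lines ranged from -0.099 to 0.020 for *Hist1h1c*, from -0.052 to 0.10 for *Hist1h2bc* and from -0.14 to 0.021 for *Hist3h2a*. In the male lines they ranged from -0.66 to 0.36 for *Hist1h2bk*, from -0.19 to 0.22 for *Hist1h1c*, from -0.23 to 0.13 for *Hist1h2bc*, from -0.25 to 0.00099 for *Hist3h2a* and from -0.37 to 0.034 for *Hist2h3c1*. The causes were not tested. Low counts limit the comparisons, since 33 of 70 members had too few to be tested.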
